A study of Rattus norvegicus with 4 samples.

Results

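The GluN1 and GluN2 subunit genes of the NMDA receptor, Grin1, Grin2a, Grin2b, Grin2c and Grin2d, are 5 of the 720 genes named on a rat oligonucleotide array, where 11 of 1263 non-control probe sets read them. The probe sets were taken by gene symbol alone: 4 for Grin1, 2 each for Grin2a, Grin2c and Grin2d, and 1 for Grin2b. Grin3a, the gene of the GluN3A subunit, was also on the array with 3 probe sets, none of them bright enough to be analysed, and is counted below among the other ionotropic receptor genes. Total RNA from samples labelled brain, adrenal medulla was hybridised to 4 arrays, with 1 array each for a digested and an undigested sample at day 7 and at day 1 of a time course. The labels name no strain, age, sex or genotype, and they do not say what was digested or whether the samples were tissue or cultured cells. With 1 array per group no spread between replicates was measured, so a difference between 2 arrays is given as a size without a test, beside a fit over all 4 arrays, and the number of arrays limits the precision.

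NMDA receptors are glutamate-gated channels that let calcium as well as sodium enter the cell. Grin1 encodes GluN1, the subunit that every such receptor needs and that binds the co-agonist glycine or D-serine. Grin2a to Grin2d encode the GluN2 subunits, which bind glutamate and set the opening kinetics and the magnesium block; in rodent brain GluN2A and GluN2B are the main forebrain forms, GluN2C is best known from the cerebellum and GluN2D from early development, diencephalon and brainstem.

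Control probe sets aside, all arrays were brought to the same median signal (262.8), and values under a signal of 51.9, the 20th percentile of all, were set to that floor before log2 was taken. A probe set was analysed when its mean log2 value reached the median of all probe sets, a signal of 229, which left 632 probe sets and 7 of the 11 members: both of Grin2d, 2 of the 4 of Grin1 and 1 each of Grin2a, Grin2b and Grin2c. A probe set was counted as differing when the log2 difference was at least 1 either way, which is 2-fold. Because probe sets differ in how strongly they bind, signals of different probe sets are not set against each other as levels, and subunit balance is given only as the change of a ratio between arrays.

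The labelled tissue was checked against marker genes. Th, the gene of tyrosine hydroxylase, which makes the precursor of the catecholamines, had signals between 163625 and 256725, and all 5 chromaffin cell genes on the array were in the analysed set, as were all 8 neuronal genes. Summed over its probe sets, the neuronal list stood at 198900 in the digested and 223800 in the undigested sample at day 7, and at 322200 in the digested and 295600 in the undigested sample at day 1. The chromaffin list summed to 251900 in the digested and 385900 in the undigested sample at day 7, and to 303900 in the digested and 280800 in the undigested sample at day 1. Such sums weigh the brightest probe sets most, those of Th in the chromaffin list and of Snap25 in the neuronal list. All 5 chromaffin genes were lower with digestion at day 7, with a median log2 of -0.50. Of the 8 neuronal genes 6 were lower with digestion at day 7, with a median log2 of -0.49. The exceptions were Snap25 (log2 0.11) and Gap43 (log2 0.58), by their brightest probe sets. The median of all analysed probe sets was -0.05. At day 1 all 5 chromaffin and all 8 neuronal genes were higher with digestion. Their median log2 values were 0.15 and 0.12, against 0.12 for all analysed probe sets. Of the astrocyte genes 4 were on the array and 2 were analysed, and the same counts held for the oligodendrocyte and Schwann cell genes. Glul, an astrocyte gene that other cells also express, read between 2499 and 6904 and the myelin gene Cnp between 1612 and 2668, while the glutamate transporter gene Slc1a2 read at most 182.3 and the myelin gene Mbp at most 214, under the signal of 229 used as a filter. The other analysed genes were the astrocyte gene Slc1a3 at 229 to 352 and the myelin gene Mag at 530 to 669, by their brightest probe sets. The other dim genes, S100b and Mog, read at most 96.3 and 128. Of 6 microglia and macrophage genes, 1 was on the array and 0 were analysed. Of 5 adrenal cortex genes 0 were on the array, so cortex in the samples could not be checked. As a measure of RNA quality, beta-actin signal from the 3′ end over that from the 5′ end was 1.36 in the digested and 2.66 in the undigested day 7 sample, and 1.48 in the digested and 1.42 in the undigested day 1 sample. The same measure lay between 1.01 and 1.18 for GAPDH over the 4 arrays; for hexokinase it was 1.05 in the digested and 1.40 in the undigested day 7 sample, and 1.20 in the digested and 1.31 in the undigested day 1 sample. The hybridisation controls of the digested day 7 array lay at a median log2 of -1.35 against the other arrays. The part of these differences between arrays in the day 7 results was not tested, and fewer cells of a type and less RNA per cell cannot be told apart in such samples.

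Among the analysed members, the Grin1 probe sets were the ones that read higher in the digested sample at both days under every scaling and floor tried. The brightest, S39221_g_at, had scaled signals of 4079 in the digested and 1557 in the undigested sample at day 7, and of 3094 in the digested and 2220.5 in the undigested sample at day 1. Both digested samples lay above both undigested samples. The digested sample was 2.62-fold higher at day 7 (log2 1.39) and 1.39-fold higher at day 1 (log2 0.48).

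A second analysed Grin1 probe set, U11418_s_at, had 641 in the digested and 408 in the undigested sample at day 7, and 499 in the digested and 286 in the undigested sample at day 1. Again both digested samples lay above both undigested ones. The digested sample was 1.57-fold higher at day 7 (log2 0.65) and 1.74-fold higher at day 1 (log2 0.80), so this probe set did not reach 2-fold at either day, and the larger difference was at day 1 here and at day 7 for S39221_g_at. The suffix _s marks a probe set that, by the array maker's naming, can detect several related transcripts; Grin1 is known to be spliced into several forms, and which part of the transcript each probe set reads was not given.

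The remaining pair of Grin1 probe sets was dim and ran differently. S39221_at, named after the same sequence record as the brightest one, read 46.1 in the digested and 86.2 in the undigested sample at day 7, and 165 in the digested and 325 in the undigested sample at day 1. It was lower in the digested sample at both days and higher at day 1 than at day 7 in both states, with the digested day 7 value under the floor. L19708_at read 41.9 and 35.7 in the digested and undigested samples at day 7, both under the floor, and 55.9 and 87.9 in the digested and undigested samples at day 1. At day 1, the log2 differences of digested over undigested were -0.98 for S39221_at and -0.65 for L19708_at, the opposite direction to that of the analysed Grin1 probe sets. Averaged over all 4 Grin1 probe sets, dim ones included, the log2 difference was -0.09 at day 1 and 0.33 at day 7.

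For all 3 genes with a RefSeq promoter entry here, the windows hold the 250 bases before and 50 bases after the annotated start (RefSeq, build GRCr8). The stretches before the start of Grin1 and Grin2d are shown because these genes held the members past 2-fold at day 7. Capitals mark CG dinucleotides, and the sequences are those of the gene's own strand, which is the minus strand for both, 5′ to 3′. They lie at chr3:28528755-28529004 for Grin1 and chr1:105481237-105481486 for Grin2d.
Grin1: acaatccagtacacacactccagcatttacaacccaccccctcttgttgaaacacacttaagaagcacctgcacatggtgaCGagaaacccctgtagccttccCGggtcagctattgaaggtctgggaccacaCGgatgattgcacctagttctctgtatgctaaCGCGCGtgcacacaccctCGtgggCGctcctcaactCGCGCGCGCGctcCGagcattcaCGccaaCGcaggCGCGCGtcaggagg
Grin2d: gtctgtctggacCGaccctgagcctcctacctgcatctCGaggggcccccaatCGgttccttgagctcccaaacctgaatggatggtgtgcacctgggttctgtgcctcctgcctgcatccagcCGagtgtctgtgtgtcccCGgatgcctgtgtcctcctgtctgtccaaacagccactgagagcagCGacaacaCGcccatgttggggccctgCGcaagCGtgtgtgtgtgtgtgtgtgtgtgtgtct

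The Grin1 stretch holds 19 CG dinucleotides, the Grin2d stretch 9 and that of Grin2c 8, against a median of 5 over 33469 rat promoters, of which 18.4% hold as many as Grin1 or more. In the whole 300-base window, the letters of a site for EGR factors, GCGGGGGCG, were found once in Grin1, starting at base 26 after the start, where they overlap a GC box, GGGCGG. Of all promoter windows, 2.73% hold the first motif and 33.1% the second on either strand. Neither was found in the windows of Grin2c and Grin2d. The 30 bases around the match, with both motifs in capitals, lie on the minus strand at chr3:28528710-28528739.
Grin1: gcgtcaggaaGCGGGGGCGGtgggaggggt

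**Figure D1:**
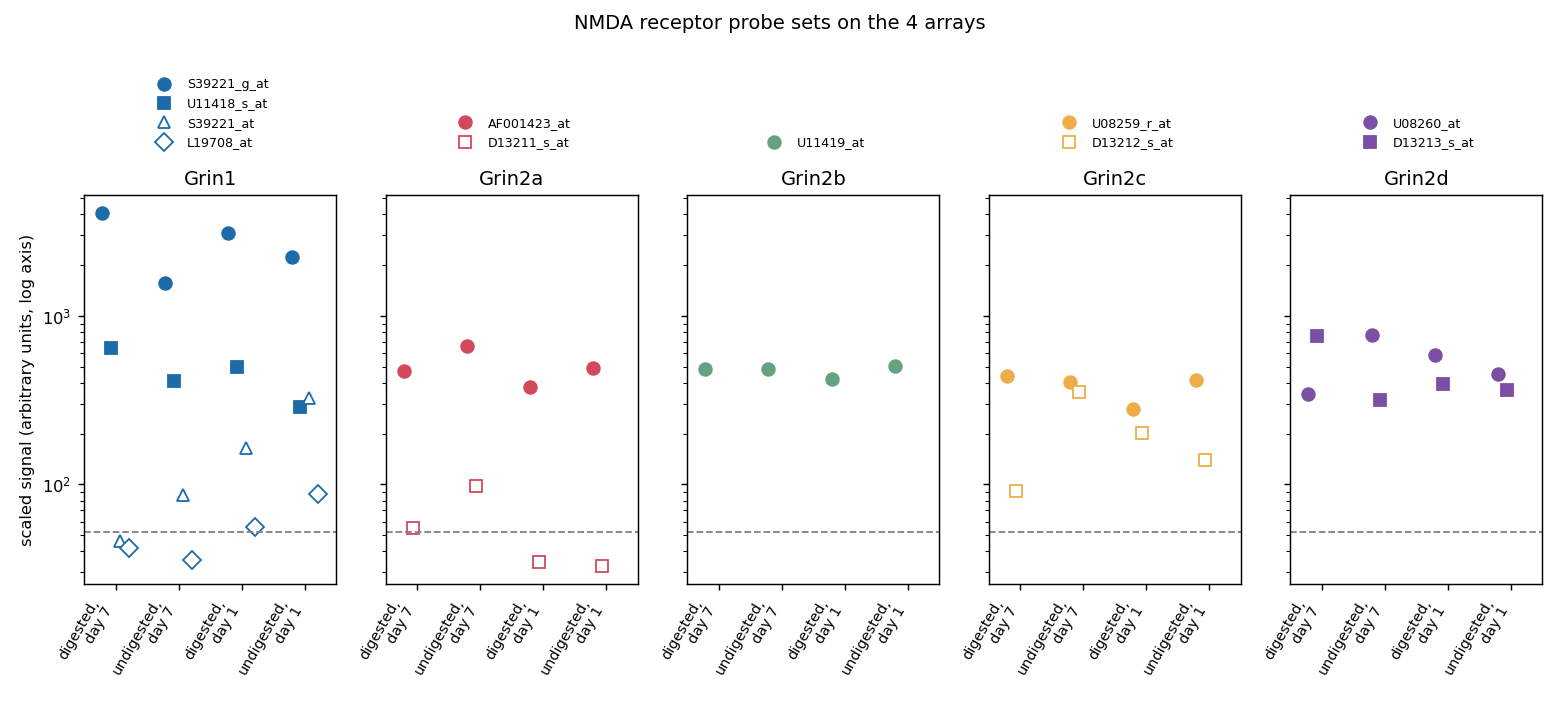
Scaled signal (log axis) of the 11 NMDA receptor probe sets, 1 panel per gene, with 1 point per array: digested and undigested at day 7, then digested and undigested at day 1. Filled points are the 7 analysed probe sets, open points the dim ones, and the dashed line is the floor of 51.9; S39221_g_at of Grin1 is at 4079 and 3094 in the digested samples and at 1557 and 2220.5 in the undigested ones.

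Among the GluN2 genes, Grin2a ran the other way from the analysed Grin1 probe sets, at smaller sizes. AF001423_at read 469 in the digested and 665 in the undigested sample at day 7, and 378 in the digested and 490.1 in the undigested sample at day 1. The digested sample was lower by 1.42-fold at day 7 (log2 -0.50) and by 1.30-fold at day 1 (log2 -0.37), and day 7 was higher than day 1 in both states, with log2 differences of 0.31 in the digested and 0.44 in the undigested samples. The dim probe set D13211_s_at read 54.8 in the digested and 97.0 in the undigested sample at day 7, and lay under the floor in both day 1 samples (34.3 digested, 32.7 undigested).

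Grin2b had the flattest values of the analysed members. Its probe set U11419_at read 482 in the digested and 483 in the undigested sample at day 7, and 421 in the digested and 504 in the undigested sample at day 1. The highest and the lowest array differed by a log2 of 0.26, and none of the log2 differences exceeded 0.26 in size; with a single probe set and 1 array per group, this does not show that the transcript was unchanged. At day 7 the log2 difference of -0.0039 turned positive under quantile normalisation, at 0.13, and in the values as deposited, at 0.14.

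Grin2c was read by U08259_r_at, with 441 in the digested and 405 in the undigested sample at day 7, and 279.9 in the digested and 415 in the undigested sample at day 1. The digested day 1 sample was the lowest and the other 3 arrays lay close together, so the log2 difference of digested over undigested was 0.12 at day 7 and -0.57 at day 1. The suffix _r marks a probe set for which the maker relaxed its design rules. The dim probe set D13212_s_at read 91.0 in the digested and 354 in the undigested sample at day 7, and 202 in the digested and 139.8 in the undigested sample at day 1. It thus pointed the opposite way from U08259_r_at at both days, with log2 differences of -1.96 at day 7 and 0.53 at day 1, although all 4 of its values were above the floor.

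The probe sets of Grin2d contradicted each other at day 7. U08260_at read 341 in the digested and 773 in the undigested sample at day 7, and 582 in the digested and 453 in the undigested sample at day 1. D13213_s_at read 756 in the digested and 315 in the undigested sample at day 7, and 392 in the digested and 365 in the undigested sample at day 1. The digested sample at day 7 was therefore 2.27-fold lower by U08260_at (log2 -1.18) and 2.40-fold higher by D13213_s_at (log2 1.26), while at day 1 the log2 differences were 0.36 and 0.10, the last of which was -0.03 in the values as deposited. No direction can be given for Grin2d at day 7 from these values.

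Among analysed probe sets, such a disagreement was rare in the digestion comparison at day 7. Of the 125 genes with several analysed probe sets, Grin2d was the 1 gene whose probe sets passed 2-fold in opposite directions between the digested and undigested samples at day 7. Its range between probe sets was 2.44 on the log2 scale, and 3 genes in all had a range as large, against a median range of 0.44. For Grin1 the range over its analysed probe sets was 0.74, with 36 of the 125 genes at or above it. With dim probe sets included, the ranges at day 7 were 2.12 for Grin1, 2.08 for Grin2c and 0.32 for Grin2a. The pooled SD between analysed probe sets of a gene was 0.52 at day 7 and 0.32 at day 1. Between the days in the undigested samples, 2 of the 125 genes, Kcnj11 and Nf1, had probe sets past 2-fold in opposite directions.

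**Figure D2:**
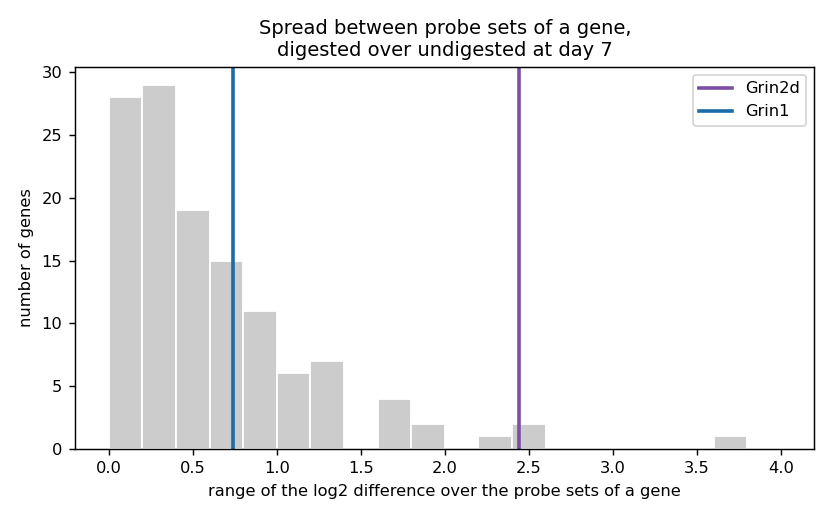
Number of genes by the range of the log2 difference, digested over undigested at day 7, over the analysed probe sets of a gene, for the 125 genes with several such probe sets. Vertical lines mark Grin2d at 2.44 and Grin1 at 0.74.

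Counted over the analysed members, 3 of 7 probe sets differed at least 2-fold between the digested and undigested samples at day 7. The 2 that were higher with digestion were S39221_g_at of Grin1 and D13213_s_at of Grin2d, and the lower one was U08260_at of Grin2d. Of all 632 analysed probe sets 11.4% passed 2-fold in this comparison. The members' median log2 difference was 0.12 and that of all analysed probe sets -0.05. At the size of S39221_g_at or beyond, in either direction, lay 35 of the 632 probe sets (5.54%).

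At day 1, 0 of the 7 members differed 2-fold between the digested and undigested samples, against 3.48% of all analysed probe sets. The members' log2 differences ran from -0.57 for U08259_r_at of Grin2c to 0.80 for U11418_s_at of Grin1, with a median of 0.10 against 0.12 for all. At the size of U11418_s_at or beyond lay 34 of the 632 probe sets (5.38%). Of the 7 members, 4 were higher and 3 lower in the digested sample at either day.

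**Figure D3:**
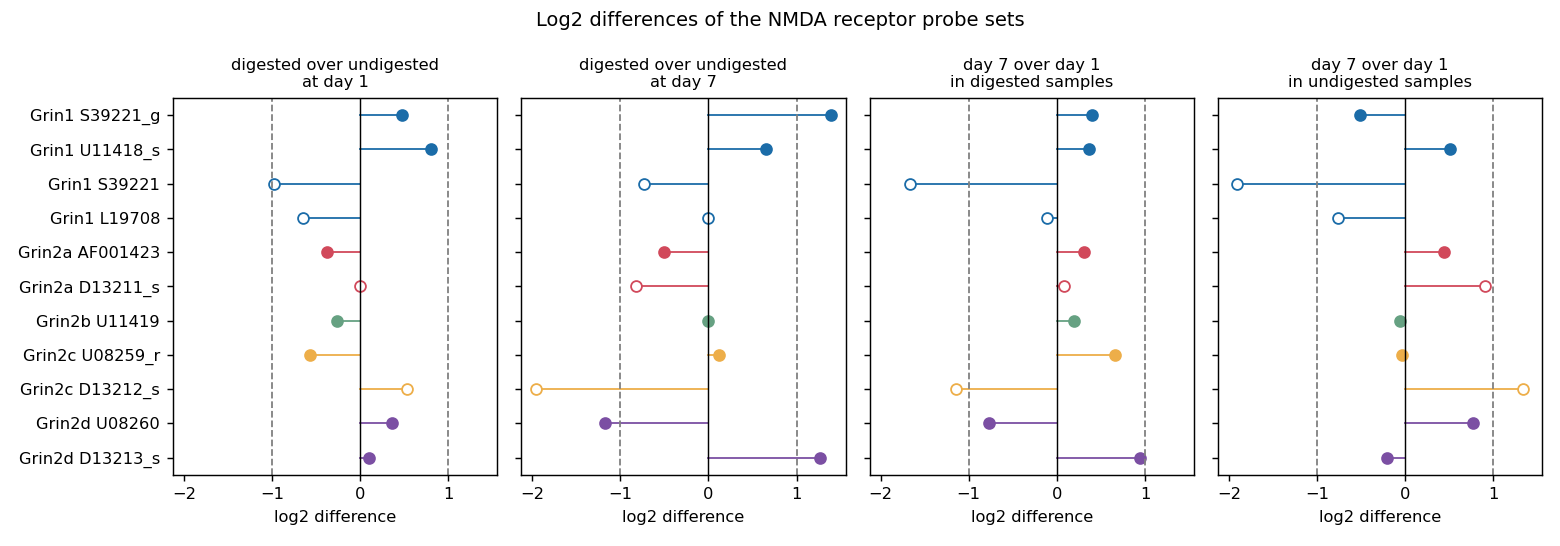
Log2 differences of the 11 probe sets in 4 comparisons, digested over undigested at day 1 and at day 7 and day 7 over day 1 in digested and in undigested samples, with dashed lines at 2-fold. Filled points are analysed probe sets, open points dim ones; the 2 probe sets of Grin2d lie at -1.18 and 1.26 for digestion at day 7.

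Between the days, 0 of 7 members passed 2-fold in the digested samples, where 8.07% of the analysed probe sets did, and 0 of 7 in the undigested samples, where 13.3% did. In the digested samples 6 of the 7 members were higher at day 7 than at day 1, with a median log2 of 0.36 against 0.04 for all. The largest was D13213_s_at of Grin2d at 0.95, followed by U08259_r_at of Grin2c at 0.66, and the exception was U08260_at of Grin2d at -0.77. Among the dim members, S39221_at (-1.67) and L19708_at (-0.11) of Grin1 and D13212_s_at of Grin2c (-1.15) were lower at day 7. D13211_s_at of Grin2a was higher, at 0.08. Of these, only D13212_s_at had no value at the floor in the digested samples. In the undigested samples 3 of the 7 analysed members were higher and 4 lower at day 7, with a median of -0.03 against 0.17 for all. The Grin1 probe sets pointed in opposite directions there, with -0.51 for S39221_g_at and 0.51 for U11418_s_at. Each array enters both a digestion and a day comparison, so the comparisons are not independent of each other.

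With both factors in an additive limma fit over all 4 arrays, adjusted by Benjamini-Hochberg over the 632 probe sets, 0 of 7 members were called for digestion, as were 0 of 632 (0%), and 0 of 7 for the day, against 0.158% of all. At an unadjusted p under 0.05 were 2 members for digestion, both of Grin1, and 0 for the day, against 42 of the 632 probe sets for digestion and 91 of the 632 for the day. S39221_g_at had a log2 estimate of 0.93 with an SE of 0.34 and an adjusted p of 0.677 in limma. U11418_s_at had 0.73 with an SE of 0.31 and an adjusted p of 0.69 in limma. Both were higher in the digested sample in both pairs of arrays, and both fail the correction. The fit has 1 residual degree of freedom, in which sample-to-sample spread and a digestion effect that truly differs by day cannot be told apart. Each SE therefore rests mostly on the limma prior, with 7.76 degrees of freedom drawn from all 632 probe sets.

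**Figure D4:**
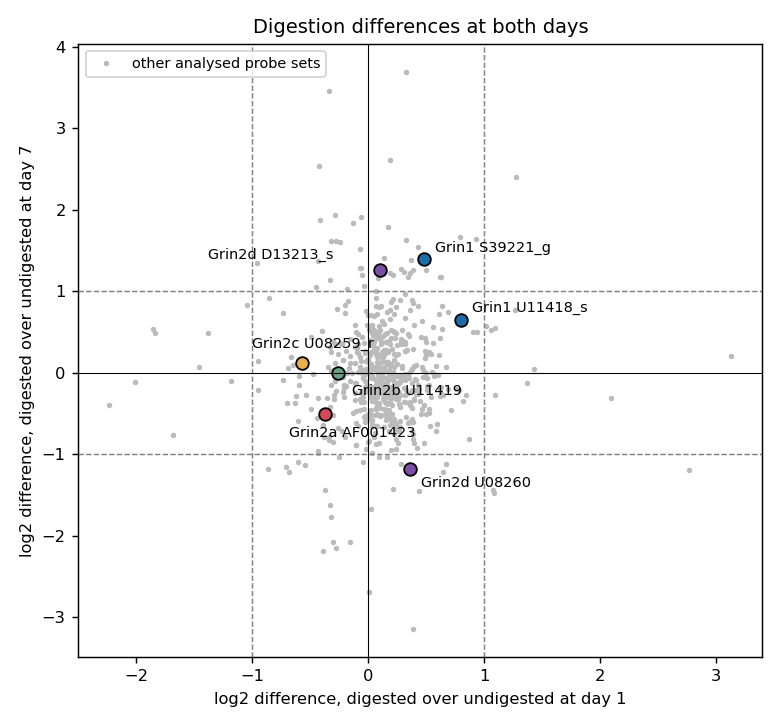
Log2 difference of digested over undigested at day 7 (vertical) against that at day 1 (horizontal) for the 632 analysed probe sets, with the 7 NMDA receptor probe sets named and dashed lines at 2-fold. The Grin1 probe sets lie at 1.39 and 0.48 and at 0.65 and 0.80, in the upper right; those of Grin2d lie apart at 1.26 and -1.18 on the vertical axis.

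By the analysed probe sets, the signals of Grin2a, Grin2b and Grin2c relative to Grin1 were lower with digestion at both days. These ratios share the Grin1 signal as denominator, and Grin2b itself had a log2 difference of -0.0039 at day 7. By the brightest probe sets, the log2 ratio of Grin2a to Grin1 changed with digestion by -1.89 at day 7 and -0.85 at day 1, and that of Grin2b to Grin1 by -1.39 at day 7 and -0.74 at day 1. With U11418_s_at in place of S39221_g_at for Grin1, the same changes were -1.15 and -1.17 for Grin2a and -0.65 and -1.06 for Grin2b. Averaged over all probe sets of a gene, dim ones included, the changes were smaller, at -0.99 and -0.098 for Grin2a and -0.33 and -0.17 for Grin2b at day 7 and day 1. The ratio of Grin2c to Grin1 changed by -1.27 at day 7 and -1.05 at day 1, and by -0.53 and -1.37 with U11418_s_at for Grin1. Averaged over all probe sets of a gene, dim ones included, it changed by -1.24 at day 7 and 0.07 at day 1. The ratio of Grin2d to Grin1 ran from -2.57 to 0.61 at day 7 over the 4 pairs of analysed probe sets. Its direction thus depends on the probe set. The ratio of Grin2a to Grin2b, which in rodent forebrain is known to increase as synapses mature, changed by -0.50 at day 7 and -0.11 at day 1 with digestion, and for day 7 over day 1 by 0.11 in the digested and 0.50 in the undigested samples.

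Genes with the profile most like each subunit gene, by its brightest analysed probe set, were taken over the 4 arrays, among 381 other analysed genes, as those with the smallest Euclidean distance between centred log2 values. For S39221_g_at of Grin1 these were Ltbp3, which encodes a binding protein of latent TGF-beta, at a distance of 0.18, and the insulin-like growth factor 1 receptor gene Igf1r at 0.31, against a median distance of 1.23. Ltbp3 read 869 in the digested and 368 in the undigested sample at day 7, and 689 in the digested and 558 in the undigested sample at day 1. For Grin2a they were the potassium channel gene Kcnc1 at 0.19 and the calcium channel gene Cacna1c at 0.20 (median 0.73), and for Grin2b the tyrosine kinase gene Ptk2b at 0.05 and Synj1, which encodes a synaptic phosphoinositide phosphatase, at 0.13 (median 0.59). For U08259_r_at of Grin2c they were the cell death gene Bcl2l11 at 0.17 and the neuropeptide gene Nmu at 0.23 (median 0.76). For U08260_at of Grin2d they were the muscarinic receptor gene Chrm1 at 0.21 and the potassium channel gene Kcna5 at 0.27 (median 0.94). Profiles of 4 arrays leave many genes close by, and flat ones such as that of Grin2b have near neighbours among other flat genes.

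In the lists of related genes below, each gene is counted by its brightest analysed probe set. Of all 632 analysed probe sets, 11.4% passed 2-fold with digestion at day 7 and 3.48% at day 1. Between the days, 8.07% passed it in the digested and 13.3% in the undigested samples. Of 13 further ionotropic receptor subunit genes, 11 were on the array and 3 were analysed: Gria2 and Gria4 of the AMPA receptor and Grik5 of the kainate receptor. Of these 3, 0 passed 2-fold with digestion at day 7 or at day 1, and 1, Gria4, passed it between the days in undigested samples (348 at day 7, 133 at day 1). Of 8 metabotropic receptor genes, 7 were on the array and 1 was analysed, Grm4, which did not pass 2-fold in any of the 4 comparisons.

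Among 16 scaffold and related genes of the postsynaptic density, 5 were on the array and 3 analysed, with 0 past 2-fold in the 4 comparisons. Dlg4, which encodes PSD-95, the scaffold that binds the tails of GluN2 subunits, read 866 in the digested and 935 in the undigested sample at day 7, and 1048 in the digested and 978 in the undigested sample at day 1. Grip2, an AMPA receptor scaffold gene, had a log2 difference of -0.97 with digestion at day 7. Nefl, a neurofilament gene that also stands in the neuronal marker list, had a log2 difference of -0.46 in that comparison. All 3 analysed genes were below 0 there, against a median of -0.05 for all analysed probe sets.

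Of 19 genes of calcium and kinase signalling next to the receptor, 14 were on the array and 11 analysed. With digestion, 0 of the 11 passed 2-fold at day 7, where 8 were lower and the median log2 was -0.39, against -0.05 for all. At day 1, 0 passed, 8 were higher and the median was 0.10, against 0.12 for all. Fyn, a kinase known to phosphorylate GluN2 subunits, was the 1 gene past 2-fold between the days in the undigested samples, with 6185 at day 7 and 2377 at day 1. Camk4, a calmodulin-dependent kinase gene, was the 1 gene past 2-fold between the days in the digested samples, with 197 at day 7 and 434 at day 1. The calmodulin gene Calm3 was 1 of 3 higher in the digested sample at day 7, as were Camk2b and Creb1. Dimmer analysed probe sets of Camk2d, a subunit gene of CaM kinase II, did pass 2-fold with digestion: rc_AI009268_at at day 7 (log2 -1.12) and rc_AA925495_at at day 1 (log2 -1.68).

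Of 11 genes of glutamate supply and uptake, 6 were on the array and 3 analysed. Glul, which encodes the glutamine synthetase that turns glutamate into glutamine, was lower at day 7 than at day 1 in both states, with 3356 at day 7 and 6904 at day 1 in the digested samples and 2499 at day 7 and 6550.5 at day 1 in the undigested samples. It was the 1 gene of the list past 2-fold in each day comparison, and 0 of the 3 passed 2-fold with digestion at day 7 or at day 1. A dimmer analysed probe set of Glul, rc_AA852004_s_at, had a log2 difference of 1.17 with digestion at day 7.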

How the data were processed

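The deposited values were signal intensity per probe set on a linear scale, 1 column per array; their trimmed means were nearly equal (2515 to 2516). The authors' computation and scaling of the intensity values are not given in the sources used. From the deposited intensity values, the 59 controls were set aside and the arrays were brought to 1 median (factors of 0.984 and 1.09 for digested and undigested day 7, 1.01 and 0.925 for digested and undigested day 1), floored, taken to log2 and filtered as stated above. Genes were named through the platform annotation, whose 5 member symbols matched RefSeq by gene identifier. The additive fit used limma 3.58.1 in R 4.3.3 (lmFit, eBayes). Python 3.11.15, numpy 2.4.6 and pandas 2.3.3 served for the rest. The scaling, the floor and the differences between arrays were tested on simulated data. The additive fit, the ratios and the profile distances were not. Members, gene lists and tests were chosen with earlier results of these data known. All probe sets of the members are given; genes of the lists were named when past 2-fold, up to 3 per comparison, by the brightest analysed probe set, and the 2 nearest genes by profile were named for each member gene by its brightest analysed probe set. Dlg4, Grip2, Nefl, Calm3, Camk2b, Creb1, the dimmer probe sets of Camk2d and Glul and the other analysed genes named from short lists were added after their values were seen. Alternatives were the values as deposited without the median step, quantile normalisation, a higher floor (40th percentile), an added offset of 50 instead of a floor, dim probe sets kept, thresholds of 1.5-fold and 3-fold, and the mean over a gene's probe sets for the ratios. A RefSeq promoter was found for 3 of the 5 genes.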

Additional observations from a re-analysis of the deposited data

Results flagged for a closer look

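The digestion difference of U08260_at of Grin2d had opposite signs at the days, with a log2 of -1.18 at day 7 and 0.36 at day 1, a change of -1.54. With 1 array per group this change was not tested. The other Grin2d probe set, D13213_s_at, changed by 1.16 in the other direction, with 1.26 at day 7 and 0.10 at day 1.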

How the results depend on the processing

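The counts of members past 2-fold in the 4 comparisons and of members called by the additive fit were the same in the values as deposited, after quantile normalisation, with a floor at the 40th percentile and with an offset in place of the floor. Scaling moved the median log2 difference of all analysed probe sets: in the values as deposited it shifted by 0.14 and -0.13 for digestion at day 7 and day 1 and by 0.04 and -0.23 for the day in digested and undigested samples. After quantile normalisation the shifts were 0.03, -0.13, -0.01 and -0.17 in the same order. Of the 28 log2 differences of analysed members, 26 kept their sign in these 4 settings; the others were Grin2b for digestion at day 7 and D13213_s_at of Grin2d for digestion at day 1. With dim probe sets kept in, 2 of 11 members passed 2-fold between the days in the digested samples, both lower at day 7 (19.2% of all 1263 probe sets). In the undigested samples 2 passed, 1 higher and 1 lower at day 7 (22.5%). For digestion at day 7, 4 of 11 passed, 2 higher and 2 lower (21.6%). At a threshold of 1.5-fold, 1 of 7 members passed for digestion at day 1 (11.6% of all analysed) and 4 at day 7 (27.8%). For the day, 3 passed it in digested samples (23.7%) and 1 in undigested samples (37.2%). At 3-fold, 0 of 7 passed for digestion at day 7, against 3.96% of all analysed. With the mean over a gene's probe sets in place of the brightest, 8 of 24 ratio changes took the other sign, 5 of them under 2-fold by the brightest probe sets, and 3 of at least 2-fold turned round: Grin2c to Grin1 for digestion at day 1 (0.070), Grin2d to Grin2b for digestion at day 7 (0.045) and Grin2d to Grin1 for the day in digested samples (0.34); their main values were -1.05, -1.18 and -1.17. In limma the adjusted p of S39221_g_at of Grin1 for digestion ran from 0.343 to 0.973 over the settings, and U11418_s_at alone of the 2 analysed Grin1 probe sets had an unadjusted p under 0.05 in the values as deposited, after quantile normalisation and with dim probe sets kept in. In that last fit S39221_at of Grin1 had an unadjusted limma p of 0.03 for digestion in the opposite direction (log2 -0.86, adjusted p 0.752) and of 0.0087 for the day (log2 -1.79, adjusted p 0.447). Of all probe sets, 1 was called for the day in the additive fit, against 17 with the higher floor, 3 with the offset and 0 in the other settings. The degrees of freedom of the limma prior ran from 0.705 with dim probe sets kept in to 32.7 with the higher floor. Leaving out an array was not possible with 1 array per group, and signals near the floor limit the size of any fold.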
